A study of Mus musculus with 20 samples.

Results

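The imprinted growth-control genes Cdkn1c, Ndn, H19, Igf2, Dlk1, Meg3, Grb10, Peg3, Plagl1 and Mest, chosen by name, were followed in single blood stem and progenitor cells of the mouse. They are 10 of 38561 listed genes, and all 10 symbols matched an Ensembl identifier. Genomic imprinting is the expression of a gene from the maternal or the paternal copy alone, usually set by DNA methylation laid down in the germ line. Many imprinted genes set the growth of the embryo and placenta, and maternally expressed genes such as Cdkn1c and Grb10 tend to hold growth back while paternally expressed genes such as Igf2 promote it. After birth most of them are turned down, but blood stem cells are known to keep some of them, and loss of Cdkn1c or of the maternal H19 control region is known to disturb stem cell quiescence.

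The cells were 20 single cells of C57BL/6J mouse bone marrow, each amplified and sequenced on its own with Quartz-Seq, a PCR-based method for the polyadenylated RNA of a cell. All were sorted as cKit+ cells without lineage markers. By the labels, 9 were also CD150+ and CD48- (CD150+CD48- cells, with letters A and B in their codes), and 11 were CD150- with no CD48 gate named (CD150- cells, letters C and D). What the letters stand for is not said, and letter and sort cannot be told apart. ERCC spike-in RNA was in the lysis buffer of every cell. No age, sex, treatment, animal or culture is given, so each group counts as 1 sample, differences between groups are untested, and they carry no replicate error. The strain is inbred, so the parental copy a read came from cannot be told.

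Gene reads per cell ran from 660007 to 5776125, and levels are given as CPM, the usual scaled share of a cell's gene reads, a single read being 0.173 to 1.52 CPM. A10 was the shallowest cell, with 80.2% of its reads unaligned. There were 22.3 to 109 gene reads per spike-in read in CD150+CD48- cells and 12.7 to 302 in CD150- cells. At equal depth a median of 5374 genes (4775 to 8711) were read in CD150+CD48- cells and 8360 (5445 to 8851) in CD150- cells. The labelled cell type was checked on marker lists. Stem cell (HSC) markers, 16 of 16 read in some cell, took 0.140% to 0.860% of gene reads in CD150+CD48- cells and 0.0132% to 0.565% in CD150- cells. The erythroid list took 0.0156% to 0.295% in CD150+CD48- cells. In CD150- cells it took 0.855% to 2.22% in 7 cells (C6, C9, C10, C12, D4, D5 and D8) and 0.0175% to 0.249% in D3, D9, D11 and D12. In those 7 cells HSC markers took at most 0.0448%, and in the other 4 they took 0.304% to 0.565%. Markers of cells that could enter the gate were sparse. Of bone marrow stroma, 9 of 12 were read and Pdgfrb, Adipoq and Postn were at 0, with at most 0.0357% of gene reads in CD150+CD48- cells and 0.00834% in CD150- cells. Of endothelium, 5 of 7 were read and Flt4 and Stab2 were at 0, with at most 0.0686% and 0.0196%.

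Most of these imprinted genes had few reads or none in these cells, as did most of all listed genes. A read was found somewhere for 9 of 10, against 47.5% of all listed genes. In some cell 5 (Cdkn1c, Ndn, Dlk1, Meg3 and Grb10) reached 5 reads. The share of all genes that did so was not counted. Grb10 was read in 17 cells, Ndn in 7, Cdkn1c in 4, Dlk1 in 3, Mest in 2, Igf2, Meg3, Peg3 and Plagl1 in 1 each, and H19 in none. A read in 17 or more cells was seen for 15.6% of the genes read anywhere. Grb10, Ndn and Cdkn1c passed the filter on low values (10 reads at equal depth and a read in 3 cells), as did 29.4% of listed genes, and the other 7 did not.

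**Figure D1:**
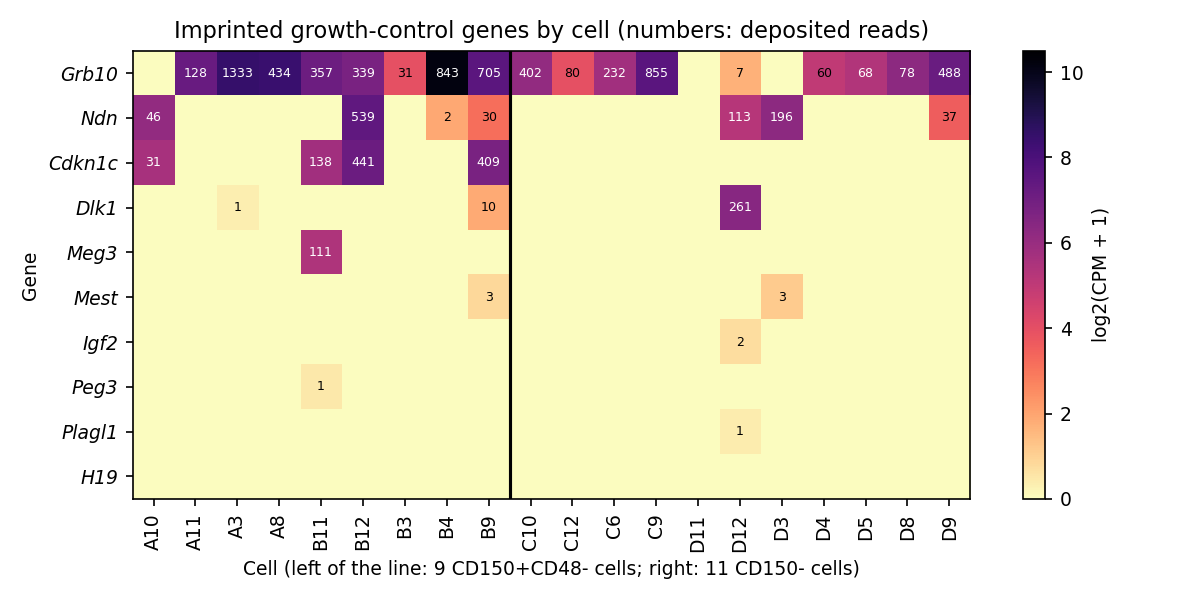
Each square is a gene in a cell, shaded by log2(CPM + 1), with the number of deposited reads printed where it is above 0; the 9 CD150+CD48- cells stand left of the line and the 11 CD150- cells right of it. Grb10 fills 17 columns, Ndn 7 and Cdkn1c 4, all 4 of the last left of the line.

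The start regions of Grb10 and Ndn, the members read in the largest number of cells, are shown because imprints are written on CG dinucleotides, which are in capitals. Each window runs from 250 bases before to 50 bases after a RefSeq transcript start on GRCm38.p6, 5′ to 3′ on the gene's strand. Grb10 has an upstream start (minus strand, chr11:12037371-12037670) and a downstream start (minus strand, chr11:12027922-12028221), and Ndn has a single start (plus strand, chr7:62348027-62348326), which lies inside the gene as GENCODE M21 draws it.
Grb10 upstream: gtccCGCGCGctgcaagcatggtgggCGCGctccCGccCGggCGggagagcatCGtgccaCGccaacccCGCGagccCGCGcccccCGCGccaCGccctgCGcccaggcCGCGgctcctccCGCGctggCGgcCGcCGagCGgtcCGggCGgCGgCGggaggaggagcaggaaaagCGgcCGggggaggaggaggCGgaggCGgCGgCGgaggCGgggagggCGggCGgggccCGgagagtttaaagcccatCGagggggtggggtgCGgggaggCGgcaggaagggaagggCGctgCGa
Grb10 downstream: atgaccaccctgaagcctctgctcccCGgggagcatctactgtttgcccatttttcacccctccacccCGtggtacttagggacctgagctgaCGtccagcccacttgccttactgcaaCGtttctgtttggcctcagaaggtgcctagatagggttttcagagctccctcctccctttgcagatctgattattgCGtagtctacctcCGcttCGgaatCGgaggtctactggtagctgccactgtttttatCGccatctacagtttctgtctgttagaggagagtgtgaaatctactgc
Ndn: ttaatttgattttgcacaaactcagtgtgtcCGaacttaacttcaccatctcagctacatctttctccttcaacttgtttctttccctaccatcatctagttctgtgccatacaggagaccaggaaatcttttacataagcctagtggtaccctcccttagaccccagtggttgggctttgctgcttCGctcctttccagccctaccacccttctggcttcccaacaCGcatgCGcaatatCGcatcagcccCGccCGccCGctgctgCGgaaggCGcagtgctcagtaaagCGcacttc

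The upstream Grb10 window held 45 CG dinucleotides, a number reached by 1.93% of the 32851 windows in the RefSeq table. The downstream Grb10 window held 9 and the Ndn window 11, reached by 45.8% and 41.4%. The search was for the letters CG, which read the same on both strands. Among the 8 members with an entry (Cdkn1c and H19 had none), the richest window held 20 or more CG in Grb10, Igf2 and Plagl1, 10 to 19 in Ndn, Meg3, Peg3 and Mest, and under 10 in Dlk1. Over all genes with a window, 86.3% of those with 20 or more CG, 75.4% of those with 10 to 19 and 28.7% of those under 10 were read in some cell. Igf2 and Plagl1, with CG-rich windows, had 2 reads and 1 read in all. Methylation was not measured, so these counts describe the sequence only.

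Grb10 (ENSMUSG00000020176, chromosome 11, 11930508 to 12038683, minus strand, GRCm38) encodes an adaptor that binds the insulin and IGF1 receptors and damps their signal. It was read in 8 of 9 CD150+CD48- cells (88.9%, 95% CI 51.8 to 99.7) and in 9 of 11 CD150- cells (81.8%, 95% CI 48.2 to 97.7). In CD150+CD48- cells it ran from 0 in A10 through a median of 151 CPM to 1154 CPM in B4 (843 reads). In CD150- cells it ran from 0 in D3 and D11 through a median of 40.0 CPM to 194 CPM in C9 (855 reads). The groups overlapped, since B3 had 14.6 CPM and C9 and D9 had 194 and 145 CPM, but the CD150+CD48- median lay above 10 of the 11 CD150- cells.

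Summed at equal depth, the 9 CD150+CD48- cells gave Grb10 277 CPM (95% CI 264 to 291) and the 11 CD150- cells gave it 59.2 CPM (95% CI 53.8 to 65.1), 4.68-fold higher (95% CI 4.21 to 5.22), with a log2 fold of 2.21, the difference of log2(CPM + 1). These intervals cover the counting of reads only, and PCR copies are not independent molecules. A log2 fold of at least 1 in this direction was seen for 21.7% of the 11354 genes past the filter. Of the 1648 Grb10 reads at equal depth in CD150+CD48- cells, 763 were in B4, and leaving out B4 brought the log2 fold to 1.49. Of the CD150+CD48- cells, B4 also had the highest shares of stroma (0.0357%), G2 and M phase (0.110%) and neutrophil and monocyte genes (0.126%). Its megakaryocyte share was 0.182%, below the 0.257% of A8. The part of these in its Grb10 level was not tested. With cells scaled to the ERCC spike-in RNA in place of total gene reads, the log2 fold of Grb10 was 0.61, while the median over all genes moved by -0.82. In cells of letters A and C it was 1.27 and in B and D 2.91. The labels give no ground for pairing these letters. All C cells had high erythroid shares, and the 4 CD150- cells of high HSC share were all of letter D. These splits, here and below, therefore also differ in the kind of CD150- cell.

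In the 7 CD150- cells of high erythroid share Grb10 was the only member read, and it was read in all 7, at 14.7 to 194 CPM. In D12, a CD150- cell of high HSC share, it had 7 reads (2.27 CPM), and in D9 488 reads. By length, in the summed reads, Grb10 was also the most abundant member. It had 30.5 CPM per kb of exon in CD150+CD48- cells and 6.52 in CD150- cells, against 20.5 and 0 for Cdkn1c and 7.98 and 3.06 for Ndn. The order of Grb10 and Cdkn1c in CD150+CD48- cells leaned on B4, which held 763 of the 1648 Grb10 reads at equal depth and no Cdkn1c read. Without B4, Cdkn1c was ahead by length. It was also ahead by length in each cell that had it, with 2039 exon bases against 9089 for Grb10. Cdkn1c and Grb10 reads were 441 and 339 in B12, 409 and 705 in B9, 138 and 357 in B11, and 31 and 0 in A10.

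Cdkn1c (ENSMUSG00000037664, chromosome 7, 143458339 to 143461050, minus strand) encodes p57, a cyclin-dependent kinase inhibitor that blocks entry into S phase. It was read in A10 (31 reads, 47.0 CPM), B11 (138 reads, 53.0 CPM), B9 (409 reads, 110 CPM) and B12 (441 reads, 142 CPM). The other 5 CD150+CD48- cells and all 11 CD150- cells had none, so no cell lay between 0 and 47.0 CPM. A read in 4 of 9 cells is 44.4% (95% CI 13.7 to 78.8), and 0 of 11 allows a share of cells with a read of up to 28.5%. Summed at equal depth Cdkn1c had 41.8 CPM (95% CI 36.7 to 47.3), at least 101-fold higher than a floor of 3 reads over the CD150- cells. Reads in 4 or more CD150+CD48- cells and in no CD150- cell, a rule set after this pattern was seen, were found for 0.396% of genes past the filter. Its log2 fold was 5.42, 4.91 without B12, which held 95 of its 248 reads at equal depth, and 5.40 without A10. In letters A and C, where A10 alone had it, the value was 3.67. With a group at 0 these values depend on the pseudocount, and were 8.71 with 0.1 CPM and 2.37 with 10 CPM. Gm44732, on the other strand, shares exon bases with Cdkn1c in GENCODE M21 (30.7% of those of Cdkn1c) and is not among the identifiers listed. The strand setting of the counting is not known, so reads of the pair cannot be told apart.

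The other inhibitors of this family differed from Cdkn1c in pattern. They are named here after their values were seen. Cdkn1b, which encodes p27, had reads in 6 of 9 and 11 of 11 cells, at 3.37 CPM (95% CI 2.06 to 5.20) and 4.41 CPM (95% CI 3.01 to 6.22). Cdkn1a, which encodes p21, had no read in any cell. The 4 cells with Cdkn1c reads were not all alike in cell cycle markers. The list of G2 and M phase genes took 0.000152% of gene reads in A10, 0.00219% in B11 and 0% in B12, but 0.0233% in B9. The highest value in CD150+CD48- cells was 0.110% in B4, which had no Cdkn1c read, and CD150- cells ranged up to 0.591%.

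Ndn (ENSMUSG00000033585, chromosome 7, 62346569 to 62350262, plus strand) encodes necdin, a growth suppressor of the MAGE family that binds E2F1 and p53, from a gene of 1 exon. It was read in B12 (539 reads, 173 CPM), A10 (46 reads, 69.7 CPM), B9 (30 reads, 8.06 CPM) and B4 (2 reads, 2.74 CPM) among CD150+CD48- cells. Among CD150- cells it was read in D3 (196 reads, 78.1 CPM), D12 (113 reads, 36.7 CPM) and D9 (37 reads, 11.0 CPM). These 3 were among the 4 CD150- cells with high HSC shares, and D11 was the one without. None of the 7 cells rich in erythroid reads had a read of Ndn, although they included the deepest cells of the series.

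Ndn was read in 44.4% of the CD150+CD48- cells (95% CI 13.7 to 78.8) and in 27.3% of the CD150- cells (95% CI 6.02 to 61.0), with no comparison made between these shares. Summed at equal depth it had 29.5 CPM (95% CI 25.3 to 34.2) against 11.3 CPM (95% CI 8.98 to 14.0), 2.61-fold higher (95% CI 2.00 to 3.43), with a log2 fold of 1.31. That direction rested on B12, which held 122 of its 175 reads at equal depth. Without B12 the log2 fold was -0.16, and without D3 it was 2.24. It was 1.05 without A10. It was 0.70 for the mean over cells on the log scale and 2.60 with spike-in scaling. In letters A and C, where A10 alone had reads, it was 4.20, and in B and D 1.10.

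**Figure D2:**
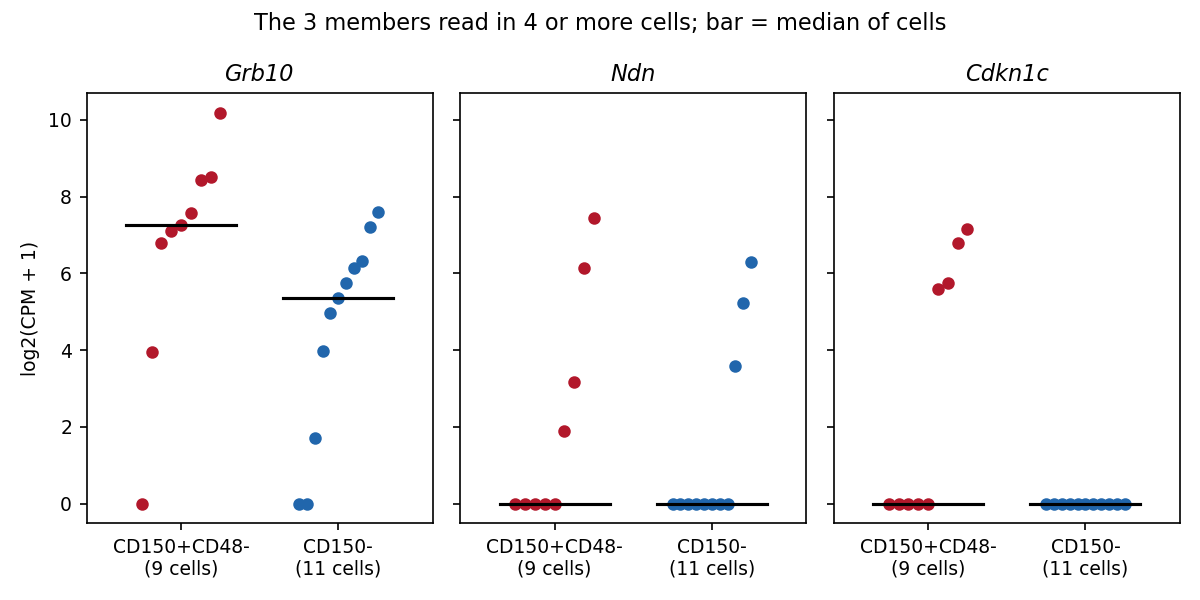
Points are cells, on a log2(CPM + 1) scale, for Grb10, Ndn and Cdkn1c in the 9 CD150+CD48- cells (red) and 11 CD150- cells (blue), and bars are medians of cells. Grb10 is at 0 in A10, D3 and D11 and spread over a wide range in the other cells of both groups. Ndn is at 0 in 5 and 8 cells, and Cdkn1c is above 0 in 4 red points only.

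Ndn and Cdkn1c were read together in A10, B12 and B9, and 8 cells had reads of either. Both were higher in B12 than in any other cell. B11 had Cdkn1c without Ndn, and B4 had only 2 Ndn reads. Grb10, read in 17 cells, was read in 3 of the 4 cells with Cdkn1c and in 5 of the 7 with Ndn. It was at 0 in A10 and D3, and its highest level, 1154 CPM, was in B4. On the plot of marker lists, the cells with Ndn or Cdkn1c reads all lay at HSC shares of 0.199% or more and erythroid shares of 0.295% or less. A3, A11, B3 and D11, which had neither, lay within the same bounds, and A8 had an HSC share of 0.140%, so a read of these genes did not mark every cell with HSC transcripts. Whether fewer RNA molecules per cell or loss in amplification set some of the zeros was not tested.

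**Figure D3:**
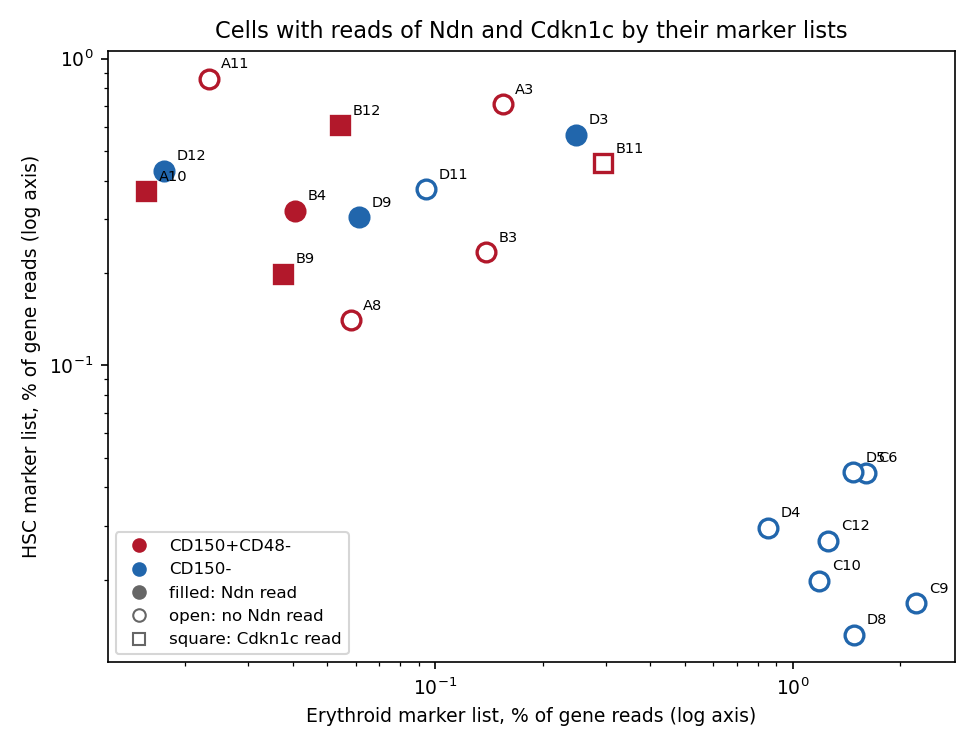
Each point is a cell, placed by the share of gene reads on the erythroid list (x) and on the HSC list (y), both in % on log axes; filled points had Ndn reads, squares Cdkn1c reads, red CD150+CD48- and blue CD150- cells. The 7 open blue points at erythroid shares of 0.855% to 2.22% had neither gene.

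Dlk1 and Meg3 are neighbours on chromosome 12 and are expressed from opposite parental copies. Dlk1 (ENSMUSG00000040856, 109452823 to 109463336, plus strand), a membrane protein of the Notch ligand type known from fetal liver and stroma, was read in D12 (261 reads, 84.7 CPM), B9 (10 reads, 2.69 CPM) and A3 (1 read). At equal depth it was 24.5-fold lower in CD150+CD48- cells (2 reads, 95% CI 6.51 to 207), with every CD150- read in D12. Its log2 fold was -2.79, and 0.42 without D12. Meg3 (ENSMUSG00000021268, 109541001 to 109571726, plus strand), a long non-coding RNA, was read in B11 alone, with 111 reads (42.6 CPM), where stroma markers took 0.00925% of gene reads and endothelium markers 0.000921%. Rian, a non-coding RNA 32.2 kb downstream of Meg3 on the same strand, had 77 reads in B11 and 1 each in C6, D3 and D11. So the cell with all Meg3 reads also held 77 of 80 Rian reads. Mirg, Dio3 and Begain, elsewhere in that region, had none, and Rtl1 had 4 reads, all in D12.

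H19 (ENSMUSG00000000031, chromosome 7, 142575529 to 142578143, minus strand), a non-coding RNA that is abundant in the fetus, had no read in 54953861 gene reads, where 3 reads would be 0.0546 CPM. A read in 0 of 20 cells allows a share of cells with a read of up to 16.8%, which does not limit the share of cells that express the gene. Igf2 (ENSMUSG00000048583, 142650766 to 142666816, minus strand), the fetal growth factor that shares enhancers with H19, had 2 reads, both in D12. Gm49394, whose exons cover 3596 of the 5723 exon bases of Igf2 in GENCODE M21, is not among the identifiers listed. D12 therefore held the reads of Igf2, 261 of 272 of Dlk1 and the 1 read of Plagl1 (ENSMUSG00000019817, chromosome 10, 13060504 to 13131694), a zinc finger factor known to regulate other imprinted genes. In D12 the stroma markers took 0.00110% of gene reads and the endothelium markers 0.00266%.

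Mest (ENSMUSG00000051855, chromosome 6, 30723547 to 30748465, plus strand), a hydrolase-like protein, had 3 reads in B9 and 3 in D3. Its 3′ exons share 912 bases with Copg2 on the other strand. The sources used here do not say whether reads were counted by strand, so reads of these bases may be mixed or left out of both genes. Peg3 (ENSMUSG00000002265, chromosome 7, 6703892 to 6730431, minus strand), a zinc finger protein, had 1 read, in B11. At these depths a cell with no read allows up to 0.519 to 4.55 CPM, so low levels of any of these genes in single cells would have gone undetected.

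The number of members read per cell was 1 to 5 in CD150+CD48- cells and 0 to 5 in CD150- cells. It was 5 in B9 and D12, 4 in B11, 3 in B12, and 0 in D11. B9, B11 and D12 were also among the cells with many genes detected at equal depth (8346, 8711 and 8812), but C10, with 8851, had Grb10 alone. Gene detection and member detection thus did not run together in every cell.

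Of 50 other imprinted genes on a wider list, 18 had no read, against 20254 of all 38561 listed genes. Near Ndn, Magel2 (26.7 kb away), a MAGE family gene, and Mkrn3 (67.3 kb) had no read, and Peg12 (112 kb) was read in A8 (140 reads), B4 (132), B12 (12) and D12 (5). Near Grb10, Cobl had none and Ddc, 32.4 kb away, had 22 reads, all in D12. Near Peg3, Usp29 and Zim1 had none. On distal chromosome 7, Slc22a18, 12.7 kb from Cdkn1c, was read in A11, B9, D11 and D12, so it shared only B9 with Cdkn1c. Phlda2, 40.5 kb away and a growth suppressor of the placenta, was read in B3, B9, B11 and 4 CD150- cells, sharing B9 and B11 with Cdkn1c. Tspan32, a tetraspanin of blood cells, and Cd81, another tetraspanin, were read in 18 and 19 of the 20 cells. Kcnq1 and Ascl2 had none.

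Of the wider list of 55 imprinted genes, 50 were matched (Kcnq1ot1, Snrpn, Snurf, Zim3 and Peg13 were not). Of the 50, 32 were read in some cell and 23 passed the filter. Over all 38561 genes of the files, 47.5% were read in some cell and 29.4% passed. Many on the imprinted list are imprinted only in brain or placenta. Of the 23, 15 had a log2 fold of at least 1 towards CD150+CD48- cells and 4 (Ube3a, Cd81, Dcn and Gnas, the last 3 named after their values were seen) a log2 fold of -1 or lower, 65.2% and 17.4% of the 23, against 21.7% and 27.0% of all genes past the filter. Some of the 15 passed the filter only through CD150+CD48- cells, such as Peg12, with 201 reads there at equal depth and 2 in CD150- cells. The list was also chosen with earlier results of these data known, so these shares are a description. Many of the log2 folds rested on few cells. With a single cell left out, 8 of the 15 fell under 1, and 4 of those (Slc22a18, Phlda2, Tssc4 and Copg2) changed sign. Of the 4 at -1 or lower, Gnas was -0.47 without D8 and Dcn 1.54 without D9, while Ube3a and Cd81 stayed at -1 or lower whichever cell was left out. The median of the list was 1.37, against -0.10 over all genes. Reads of the list made up 0.128% to 0.337% of a cell's gene reads in CD150+CD48- cells and 0.0851% to 0.202% in CD150- cells, ranges that overlap. In cells of letters A and C the counts were 5 and 2 of 14 genes past the filter, and with spike-in scaling they were 10 and 6 of 23. The shares of all genes under these settings were not counted. The median over all genes moved by -0.27 in letters A and C and by -0.82 with spike-in scaling.

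Trappc9, a subunit of a vesicle tethering complex, was read in 8 of 9 and 4 of 11 cells, at 268 CPM (95% CI 255 to 282) against 18.3 CPM (95% CI 15.3 to 21.7). Its log2 fold was 3.80, 3.12 without A10 and 4.44 without C6. Ppp1r9a, which encodes the actin-binding protein neurabin, was read in 9 of 9 and 4 of 11 cells, at 71.7 against 23.6 CPM. The log2 fold of Ppp1r9a was 1.57, but 0.99 when B4 was left out and 2.79 when D3 was. In CD150- cells nearly all Ppp1r9a reads were in D3 (405) and D9 (273). Ube3a, a ubiquitin ligase imprinted in neurons, went the other way, read in 5 of 9 and 11 of 11 cells at 14.5 CPM (95% CI 11.6 to 17.9) against 193 CPM (95% CI 183 to 204), with a log2 fold of -3.65. Among the 4 CD150- cells of high HSC share it was high in D12 (410 CPM), D9 (299.8 CPM) and D3 (291 CPM) but lowest of all CD150- cells in D11 (29.6 CPM), a level within the CD150+CD48- range of 0 to 47.2 CPM. Commd1, a copper and trafficking factor, had reads in 5 of 9 and 10 of 11 cells, and 59.4 against 56.9 CPM in the summed reads. Its log2 fold of 0.06 was -0.87 without B9, -1.16 for the mean over cells on the log scale and -1.43 with spike-in scaling.

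**Figure D4:**
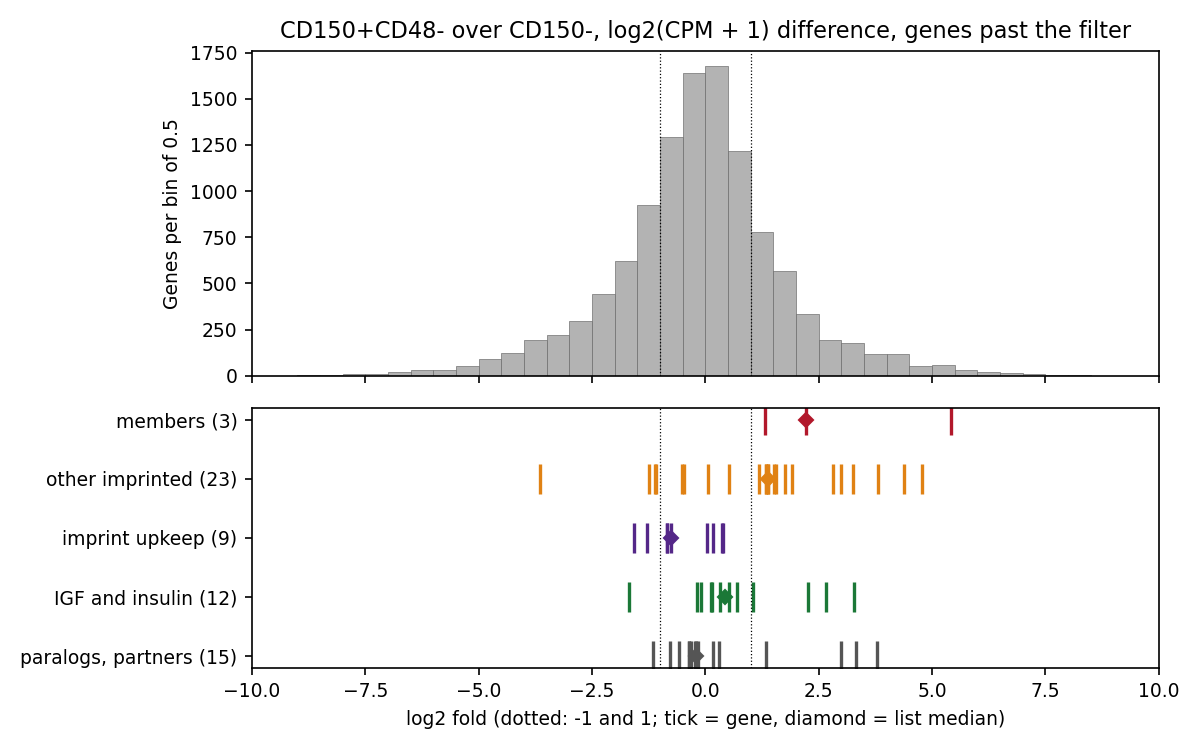
Top, the number of the 11354 genes past the filter in each bin of log2 fold (CD150+CD48- over CD150-, on the log2(CPM + 1) scale); bottom, each tick is a gene of a list past the filter and each diamond the list's median, with dotted lines at -1 and 1. The diamond of the other imprinted genes is at 1.37 and that of the genes of imprint upkeep at -0.76.

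Genes that keep imprints in place were read in both groups. Of 13, 9 passed the filter, 0 had a log2 fold of at least 1 and 2 (Uhrf1 and Dnmt3b) had -1 or lower, with a median of -0.76. That is 22.2% of the 9, against 27.0% of all genes past the filter. Trim28, the corepressor recruited to imprints, and Ctcf, the insulator protein of the H19 and Igf2 region, were read in all 20 cells. Ctcf had 90.9 against 164 CPM, a log2 fold of -0.85. Hells, a chromatin remodeller, was read in 3 of 9 and 11 of 11 cells. The log2 fold of Hells was -0.85, and 382 of its 385 reads at equal depth in CD150+CD48- cells were in B9, without which it was -6.24. It was -7.14 in letters A and C but 0.62 in B and D, so its direction turned between them. Uhrf1, which guides the maintenance methyltransferase, was read in 2 of 9 and 7 of 11 cells. For Uhrf1 the log2 fold was -1.30, -3.69 without B9 and -0.64 without D5. Dnmt3a, a de novo methyltransferase, was read in 5 of 9 and 5 of 11 cells at 56.1 against 43.1 CPM, and its log2 fold of 0.37 was -0.25 without B11 and 0.95 without D12. Dnmt3b, another de novo methyltransferase, named after its values were seen, was read in 4 of 9 and 8 of 11 cells at 20.4 against 62.3 CPM, a log2 fold of -1.57. Most of its CD150- reads were in D9 (391 of 452 at equal depth), and without D9 the value was 1.06. Zfp57, which marks imprints for Trim28, had 36 reads, all in B9, and Zfp445, Dppa3 and Dnmt3l had no read. Hells and Uhrf1 are also genes of cycling cells, whose markers were higher in the 7 CD150- cells (0.256% to 0.591% of gene reads on the G2 and M phase list), and the part of this in their values was not tested.

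In the IGF and insulin pathway, on which Igf2 and Grb10 act, 12 of 25 genes passed the filter. A log2 fold of at least 1 was seen for 4 (Pik3r1, Igf1r, Igf2bp2 and Insr) and of -1 or lower for Akt2 alone, with a median of 0.43. Igf2bp2, Insr and Akt2 are named after their values were seen, at 2.66, 1.04 and -1.68. These counts are 33.3% and 8.33% of the 12, against 21.7% and 27.0% of all genes past the filter. With a single cell left out 3 of the 4 fell under 1, Igf2bp2 to 0.57 without A11, Insr to 0.63 without B9, and Igf1r as given next. Igf1r, the receptor for IGF1 and IGF2, was read in 1 of 9 and 7 of 11 cells. Its log2 fold of 2.27 came from B11 (306 reads), and without B11 it was -1.41. Igf2r, which clears IGF2, was read in 4 of 9 and 9 of 11 cells at 10.6 against 7.02 CPM, and its log2 fold of 0.53 became -0.31 without B11. Pik3r1, the regulatory subunit of the kinase below these receptors, was read in 8 of 9 and 5 of 11 cells at 298 (95% CI 284 to 312) against 30.0 CPM (95% CI 26.2 to 34.3), giving log2 fold 3.27, or 2.41 without B3 and 3.86 without C6. In cells of letters A and C it was 0.66. Igfbp4, which binds IGFs, was read in 7 of 9 CD150+CD48- cells and in D3, D9, D11 and D12, and in none of the 7 CD150- cells of high erythroid share. Its log2 fold was 0.32, -0.21 without B3 and 1.39 without D9. Igf1r and Igf2r were thinly read in most cells. Grb10 reads equalled or outnumbered those of 38.7% (D12) to 97.4% (B4) of the genes read in the same cell, Grb10 itself included, over the 17 cells that had it.

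Among paralogs and partners of the members, 15 of 22 passed the filter, 4 with a log2 fold of at least 1, E2f1 alone with -1 or lower, and a median of -0.20. The 4 were Ccnd2, Maged1 and, named after their values were seen, Ccnd1 (2.99) and Cdk6 (1.33). That is 26.7% of the 15 at 1 or more and 6.67% at -1 or lower, against 21.7% and 27.0% of all genes past the filter. Cdk6 was 0.21 without B3, and it was -1.15 with spike-in scaling and -1.98 in letters A and C. Maged1, a MAGE family relative of necdin, was read in 7 of 9 and 4 of 11 cells, at 205 CPM (95% CI 193 to 216) against 19.7 CPM (95% CI 16.6 to 23.2), giving log2 fold 3.31, or 2.32 without B12 and 6.64 without D12. Its highest cell, at 986 CPM, was B12, also the highest for Ndn, and its highest CD150- cell was D12 at 233 CPM. Ccnd2, cyclin D2, was read in 9 of 9 and 7 of 11 cells, at 378 against 26.3 CPM. Its log2 fold was 3.80, and 5.98 without D12. E2f1, a target of necdin binding, was read in 3 of 9 and 8 of 11 cells. The log2 fold of E2f1 was -1.16, -0.89 without C6 and -2.06 without A8. Ccnd3 was read in 7 of 9 and 11 of 11 cells at 155 against 138 CPM.

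The genes most like Grb10 and Ndn over the 20 cells were found by Spearman correlation of equal-depth CPM among 10082 other genes read in at least 5 cells. Points share library depth and many zeros, so these are descriptions. For Grb10 they were Hexa (0.86), Zfp710 (0.76) and Bex1 (0.75), and 128 genes reached at least 0.5. For Ndn they were Fhod1 (0.84, all 6 of its cells among the 7 of Ndn), Tspyl4 (0.79) and Zfp827 (0.78), and 221 genes reached at least 0.5. Cdkn1c, read in 4 cells, was not ranked.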

How the data were processed

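The authors deposited whole-number read counts per gene for each cell, made with HTSeq and R 3.0.2 on GRCm38 per the submitters' processing notes. The sources used here do not give the aligner, annotation release or strand setting. Each file held 38561 genes and 5 summary rows, which stayed out of totals, and a table of the series gave 51 ERCC rows. Reads aligned to several places (9.41% to 56.4% of a cell's reads) were not counted in genes. Symbols were matched through GENCODE M21, which also gave coordinates.

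Gene reads of every cell were drawn down, without replacement, to the lowest total of 660007, then summed by group and scaled to CPM, and log2 folds used a pseudocount of 1 CPM, which understates low genes. A log2 fold of 1 in size was the mark for counts. Levels carry exact Poisson intervals, folds conditional binomial and shares of cells Clopper-Pearson intervals, all at 95%. Intervals for shares of cells treat the cells as independent draws and carry no replicate error. Values of single cells are of all their reads. No 2 cells had identical counts (0 pairs). The steps were tested on simulated data with Python 3.11.15, numpy 2.4.6 and scipy 1.17.1. Simulated counts were Poisson draws with the same mean share in every cell of a group. The test therefore does not cover genes whose reads sit in few cells.

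The members and gene lists were chosen with earlier results of these data known. Besides the members, the genes named are, in each pathway list, the 2 with the highest and the 2 with the lowest difference in share of cells read, imprinted genes within 1 Mb of a member, the 3 most correlated genes, and examples chosen after their values were seen. Marker lists of megakaryocyte, neutrophil and monocyte, lymphoid and mast cells were at most 0.257%, 0.126%, 0.0771% and 0.00634% of gene reads in any cell. Alternatives are given in the closing section.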

Additional observations from a re-analysis of the deposited data

Results flagged for a closer look

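In the 9 CD150+CD48- cells the highest value of 6 members stood apart from the next cell by more than Dixon's 95% criterion, which chance meets in about 1 of 20 groups. Values of 0 in most cells meet it often, so for most of them it restates that a gene was read in 1 or few cells. Grb10 had 1154 CPM in B4 against 360 CPM in the next cell, A3. Ndn had 173 CPM in B12 against 69.7 CPM in A10. Meg3 had 42.6 CPM in B11 and Peg3 0.384 CPM (1 read) in B11, and each was at 0 in the other 8 cells. Dlk1 had 2.69 CPM and Mest 0.806 CPM (3 reads) in B9.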

How the results depend on the processing

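The 3 members past the filter had log2 folds of at least 1 and 0 had -1 or lower, counts of 2 to 3 and 0 with a cell left out. Over all genes past the filter 21.7% and 27.0% did. Cdkn1c passed only through the group where it is high, and Dlk1 (-2.79) did not pass, so these counts are a description. The median was 2.21, and 1.49 to 2.62 with a cell left out. With a cell left out Ndn ran from -0.16 (without B12) to 2.24, and Dlk1 from -3.21 to 0.42 (without D12). With no gene filter 1 member was at -1 or lower and the median was 0.0192, since most members are at 0. With 50 reads in 5 cells the median was 1.76, with spike-in scaling 2.60, in letters B and D 2.91, and in letters A and C 1.27, where 1 member passed the filter and the mark. The 2.60 with spike-in scaling was the value of Ndn, while Grb10 fell to 0.61, so 2 members were at 1 or more. The count was also 2 with a pseudocount of 10 CPM and for the mean over cells on the log scale, where Ndn fell under 1. Counting a member as read from 5 reads or from 20 reads in a cell left 5 of 9, with no such count made over all genes. Of the other imprinted genes, 13 to 15 were at 1 or more and 2 to 4 at -1 or lower with a cell left out, and 5 and 2 in letters A and C, settings added after seeing the data. Shares of all genes were not counted under these settings. The causes were not tested. No paired analysis was possible because the cells' numbers pair nothing between groups and no test was made. The 4 cells of fewest gene reads (A10, B4, A11 and D8) limit what a zero shows.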

Other observations

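Outside the members, several imprinted genes had their reads in a single cell. Peg10, a placental gene derived from a retrotransposon, had 169 reads in C12 and none in the other 19 cells, and Mcts2 had 25 reads, also in C12 alone. Nap1l5 had 11 reads in D12 alone. Sgce, which lies beside Peg10 on chromosome 6, was read in A10, A3, B11, B12, B9 and D12 but not in C12. Airn, a non-coding RNA antisense to Igf2r, was read in A3 (555 reads), B11 (225), B9 (40) and C6 (12), and A3 had no Igf2r read. Since the strand setting is not known, reads where Airn and Igf2r overlap may be mixed or left out of both genes. The D12 cell had reads of 21 of the 50 matched genes of the wider imprinted list at equal depth, against 7 to 19 in the other cells. These genes were chosen after their values were seen.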
